A study of Homo sapiens with 12 samples.

Results

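The genes described here encode the main structural parts of the basement membrane: the type IV collagen chains COL4A1 and COL4A2, the laminin chains LAMA3, LAMA5, LAMB1, LAMB3 and LAMC1, and the linkers NID1 and HSPG2. They are 9 of the 57879 genes in the files and were followed through every library. They were chosen by name, with earlier results of these data known. The cells were A549, a line grown from a human lung adenocarcinoma. Cells infected with a lentiviral vector for TIF1γ (the protein of the gene TRIM33) were set against cells with the empty vector, and these form the TIF1γ pair of lines. Cells infected with an shRNA vector that lowers TAF15 (sh-TAF15) were set against cells with its control counterpart (sh-NC), and both are called the sh lines. All 4 lines are A549 cells that stably carry lentiviral sequence and were grown in the same medium. The labels do not say whether a line is a clone, nor what separated its biological replicates.

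A basement membrane is the thin sheet of matrix on which epithelial cells rest. Each laminin is a cross-shaped trimer of an alpha, a beta and a gamma chain that assembles on integrins and dystroglycan at the cell surface. Collagen IV trimers, most often of the COL4A1 and COL4A2 chains, form a second network, and nidogen and perlecan (the products of NID1 and HSPG2) join it to the laminins. In the lung these sheets lie under the airway and alveolar epithelium, and carcinoma cells cross them when they invade.

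COL4A1 and COL4A2 lie head to head on chromosome 13 and are transcribed away from each other from a shared promoter. The stretch between their RefSeq start sites is shown because both collagens were highest in the same libraries. It has 126 bases (GRCh38.p14, chr13:110307158-110307283, plus strand, COL4A2 to the right), and the capitals mark a CCAAT box and a GC box (GGGCGG):
COL4A1-COL4A2: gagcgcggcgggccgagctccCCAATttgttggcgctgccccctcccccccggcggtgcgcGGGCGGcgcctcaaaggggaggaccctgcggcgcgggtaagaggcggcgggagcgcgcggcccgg
The stretch is 80.2% G and C and holds 20 CpG dinucleotides. Both strands were searched for each motif. Of 27305 RefSeq promoter windows of the same length, 21.9% held a CCAAT and 34.6% a GGGCGG. It held no TATAAA (6.23% of windows), no TGANTCA, the core of an AP-1 site (3.47%), and no CAGAC, a SMAD box (19.6%).

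LAMA3 and LAMB3 encode chains of the same laminin, the one that anchors epithelial cells through hemidesmosomes. Their promoter stretches are shown because the levels of these partners differed in opposite directions between the pairs of lines. LAMA3 and LAMB3 were the members with a TGANTCA in the 250 bases before a RefSeq start site, and none of the other 7 had one (6.6% of promoters of that length do). That share counts only the first listed start site of each gene, where LAMB3 had no match. The capitals mark the TGANTCA match, which reads the same on either strand:
LAMA3-distal: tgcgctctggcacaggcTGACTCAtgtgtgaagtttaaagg
LAMA3-proximal: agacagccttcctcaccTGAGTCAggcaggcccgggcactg
LAMB3: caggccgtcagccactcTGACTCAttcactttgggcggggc
The LAMA3 stretches are chr18:23872878-23872918 and chr18:23872934-23872974 on the plus strand, with the match starting at -125 and -69 from the start site. The LAMB3 stretch is chr1:209651418-209651458 on the minus strand, with the match at -67 from the third of its 3 listed start sites. CpG dinucleotides were fewer in these promoters than in those of the other members: 9 per 250 bases for LAMA3, and 8, 10 and 3 for the LAMB3 start sites. The other 7 members had 28 to 40, against a median of 11 over promoters at the first listed start site of each gene (quartiles 3 and 23). A CAGAC was found in the promoters of LAMA3 (2 matches), LAMC1 (1 match) and HSPG2 (1 match), and 37.8% of promoters hold one. These matches are letters in a window and say nothing of binding.

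RNA was sequenced from 12 samples, and deposited FPKM values (fragments scaled by transcript length and mapped total) were at hand for 8: vector 1, 2 and 3, TIF1γ 2 and 3, sh-NC 2, and sh-TAF15 2 and 3. The remaining 4 were not used here. Read totals do not come with FPKM, so the depth is unknown; the values of a library summed to between 881293 and 1138414, except TIF1γ 2 at 1356634. TRIM33 stood at 1.27 to 2.23 FPKM in the vector libraries and at 8.03 and 6.14 in the TIF1γ libraries, with no overlap (log2 fold change 1.44, SE 0.27, adjusted p = 0.13). The name tables used here pair no identifier of the files with TAF15. An unnamed identifier, followed in its place, stood at 107 FPKM in sh-NC 2 and at 26.3 and 17.4 in sh-TAF15 2 and 3. It was at 35.0 to 68.1 FPKM in the vector libraries. Between sh-TAF15 and sh-NC it was not called (log2 fold change -2.32, SE 0.40, adjusted p = 0.0683). That it belongs to TAF15 could not be checked with those tables. The line showed its epithelial keratins (KRT7 at 1516 to 3746 FPKM in every library). Of 10 alveolar type 2 markers, 3 reached 1 FPKM in some library. These were ABCA3, at 2.7 to 8.21 FPKM in every library, NAPSA (at most 1.76) and SFTPC (at most 1.42). SFTPA1 and SLC34A2 were listed at 0 throughout. KRT8 and KRT18 stood at 1129 FPKM or more in 6 libraries but at an exact 0 in TIF1γ 2 and 3, so no test uses them. Fold changes below come from limma on log2(FPKM + 1), a scale that understates the change of weakly expressed genes, and a gene is called at an adjusted p under 0.05 over 13907 genes.

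On the FPKM scale, LAMA5 was the most abundant of the 9 genes in the vector and TIF1γ lines. Its mean was 107 ± 19.7 FPKM (SD, n = 3) in the vector libraries, 53.0% of the summed level of the 9. LAMB1 (28.0 ± 5.23), LAMC1 (24.2 ± 5.07) and LAMB3 (17.2 ± 10.4) followed there and did not differ beyond their spread. Next came COL4A2 at 11.2 ± 4.74, HSPG2 at 5.41 ± 0.129, LAMA3 at 4.49 ± 0.352, COL4A1 at 2.86 ± 0.54 and NID1 at 1.15 ± 0.234 FPKM (SD, n = 3 each). COL4A2 overlapped LAMB3 in that order, while HSPG2, LAMA3, COL4A1 and NID1 were separate in every vector library. In the TIF1γ libraries the order was the same except that LAMB3 (mean 26.5 ± 5.22, n = 2) stood above LAMB1 (21.4 ± 9.44) and LAMC1 (17.5 ± 0.563), with overlap between LAMB3 and LAMB1.

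The order was different in the sh lines. In the single sh-NC library COL4A2 (64.8 FPKM), LAMC1 (57.6) and LAMA5 (56.7) led and were close to each other. In the sh-TAF15 libraries LAMA5 (115 ± 42.0, n = 2), LAMB1 (59.2 ± 12.5), COL4A2 (56.1 ± 13.8) and LAMC1 (49.8 ± 11.7) led, and the last 3 overlapped. COL4A1 had passed HSPG2, LAMA3 and LAMB3 in all 3 sh libraries, and NID1 was last everywhere. LAMA5 made up 60.3% of the summed level in the TIF1γ lines, 20.1% in sh-NC and 33.4% in sh-TAF15. Summed over the 9 genes, the level was 194 to 206 FPKM in the vector libraries, 244 and 233 in TIF1γ 2 and 3, 282 in sh-NC, and 329 and 360 in sh-TAF15 2 and 3. Without LAMA5 the sum was 81.5 to 109 FPKM in the 5 vector and TIF1γ libraries and 216 to 244 in the 3 sh libraries.

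**Figure D1:**
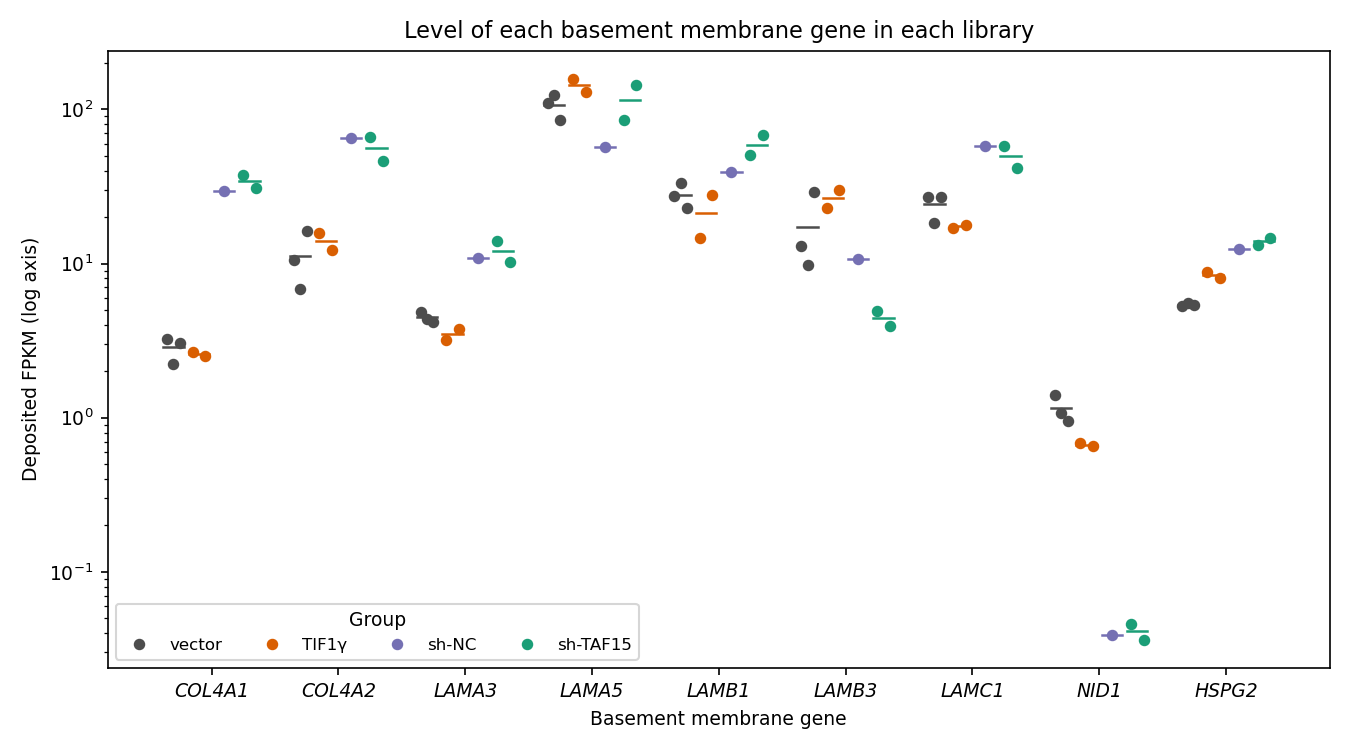
Deposited FPKM (log axis) of the 9 basement membrane genes in each library; points are libraries, bars are group means, and colours are the 4 groups (sh-NC has 1 library). The 3 sh libraries lie above the other 5 for COL4A1, COL4A2, LAMA3, LAMB1, LAMC1 and HSPG2 and below them for NID1.

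Calls among these genes came from the sh lines set against the vector and TIF1γ lines, and none from within either pair. The collagen IV chains COL4A1 and COL4A2, LAMA3, LAMB1, LAMC1 and HSPG2 were higher in the sh lines. By means of FPKM, COL4A1 was 11.9-fold and COL4A2 4.79-fold higher. LAMB3 and NID1 were lower. By limma all 9 members were called between the pairs of lines, 6 higher and 3 lower, with a median log2 fold change of 0.81 against 0.01 over all genes tested. This comparison called 41.4% of all genes tested, 20.0% higher and 21.4% lower, so a call alone is common here. Of the 9 calls, that of NID1 had a difference built into its entry, as it passed the filter on low values only through vector 1 and 2. The call of LAMA5 was lost under several alternatives. The 3 sh libraries lay above all 5 others for 6 members, against 24.4% of genes, and below them for NID1, against 12.4% of genes. The pairs differ in vector backbone, in the line and in any handling that went with it, and these cannot be told apart.

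COL4A1, a chain of the collagen IV network, was at 3.26, 2.24 and 3.07 FPKM in vector 1, 2 and 3, at 2.65 and 2.52 in TIF1γ 2 and 3, at 29.5 in sh-NC 2, and at 37.6 and 30.9 in sh-TAF15 2 and 3. All 3 sh libraries were far above the other 5. This gave a log2 fold change of 2.98 (SE 0.22, adjusted p = 5.22e-07). COL4A2, its partner in the trimer, was at 10.5, 6.84 and 16.2 FPKM in vector 1, 2 and 3, at 15.8 and 12.2 in TIF1γ 2 and 3, at 64.8 in sh-NC 2, and at 65.9 and 46.3 in sh-TAF15 2 and 3. The groups again did not overlap, although the vector libraries spread more than for COL4A1. The log2 fold change was 2.04 (SE 0.27, adjusted p = 0.000119).

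LAMA3, the alpha chain of hemidesmosomal laminin, was at 4.88, 4.38 and 4.20 FPKM in vector 1, 2 and 3, at 3.17 and 3.78 in TIF1γ 2 and 3, at 10.8 in sh-NC 2, and at 14.0 and 10.2 in sh-TAF15 2 and 3. Every sh library was above every other, and the TIF1γ libraries were the lowest. This gave a log2 fold change of 1.16 (SE 0.22, adjusted p = 0.00149). LAMA5, the alpha chain found most widely under adult epithelia, was at 110, 124 and 85.3 FPKM in vector 1, 2 and 3, at 158 and 130 in TIF1γ 2 and 3, at 56.7 in sh-NC 2, and at 85.3 and 145 in sh-TAF15 2 and 3. The sh libraries ran from the lowest value of all to one above every vector library, so the groups overlapped. The log2 fold change of -0.80 (SE 0.22, adjusted p = 0.0121) rested on single libraries and on the scaling. It was -0.34 (adjusted p = 0.316) without sh-NC 2 and -0.62 (adjusted p = 0.0573) without sh-TAF15 2. With no scaling between libraries it was -0.62 (adjusted p = 0.0582), and with the trend on transcript GC removed it was -0.06 (adjusted p = 0.845).

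LAMB1, the beta chain that pairs with LAMA5 and LAMC1, was at 27.6, 33.3 and 22.9 FPKM in vector 1, 2 and 3, at 14.7 and 28.0 in TIF1γ 2 and 3, at 39.2 in sh-NC 2, and at 50.3 and 68.0 in sh-TAF15 2 and 3. The sh libraries were all higher, sh-NC by little. The log2 fold change of 0.81 (SE 0.25, adjusted p = 0.0205) was no longer called without TIF1γ 2 (0.53, adjusted p = 0.0752), without sh-TAF15 3 (0.71, adjusted p = 0.0608) or with no filter on low values (0.81, adjusted p = 0.0891). LAMB3, the beta chain of hemidesmosomal laminin, was at 12.9, 9.72 and 29.1 FPKM in vector 1, 2 and 3, at 22.8 and 30.2 in TIF1γ 2 and 3, at 10.7 in sh-NC 2, and at 4.91 and 3.95 in sh-TAF15 2 and 3. Both sh-TAF15 libraries were below all others, but sh-NC was above vector 2, and vector 3 stood with the TIF1γ libraries. In the fit the log2 fold change was -1.57 (SE 0.33, adjusted p = 0.00376).

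LAMC1, the gamma chain of most laminins, was at 27.2, 18.4 and 27.1 FPKM in vector 1, 2 and 3, at 17.1 and 17.9 in TIF1γ 2 and 3, at 57.6 in sh-NC 2, and at 58.1 and 41.5 in sh-TAF15 2 and 3. The sh libraries were all above the rest. In the fit the log2 fold change was 1.17 (SE 0.22, adjusted p = 0.00136).

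NID1, which links laminin to collagen IV, was at 1.41, 1.08 and 0.958 FPKM in vector 1, 2 and 3, at 0.68 and 0.655 in TIF1γ 2 and 3, at 0.0388 in sh-NC 2, and at 0.0461 and 0.0362 in sh-TAF15 2 and 3. It was close to 0 in every sh library and 23.7-fold lower there by means of FPKM. NID1 passed the filter on low values only through vector 1 and 2, so a difference was built into its entry, and its fitted log2 fold change (-0.90, SE 0.22, adjusted p = 0.00615) was -2.89 with a pseudocount of 0.1. HSPG2, which encodes the heparan sulfate proteoglycan perlecan, was at 5.33, 5.56 and 5.35 FPKM in vector 1, 2 and 3, at 8.78 and 8.01 in TIF1γ 2 and 3, at 12.4 in sh-NC 2, and at 13.1 and 14.7 in sh-TAF15 2 and 3. The libraries fell into steps, vector lowest, then TIF1γ, then both sh groups. The log2 fold change between the pairs of lines was 0.70 (SE 0.20, adjusted p = 0.0135).

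Across the genes tested, the log2 fold change between the pairs of lines was related to transcript GC (Spearman's rho -0.549 over 13534 genes, which share the 8 libraries and are not independent). LAMA5 (66.4% GC), HSPG2 (64.5%) and COL4A2 (62.0%) have the transcripts richest in GC among the members, and LAMC1 (48.7%), LAMB1 (49.5%), LAMA3 (50.7%) and NID1 (51.7%) the poorest, with COL4A1 (55.4%) and LAMB3 (58.9%) between. With that trend removed, 8 of the 9 members were still called, and LAMA5 was the exception (-0.06), while HSPG2 moved from 0.70 to 1.37.

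Marker genes also differed between the pairs of lines. All 5 epithelial markers tested were called lower in the sh lines, as were 21.4% of all genes tested. Of the 5, KRT19 alone was lower in every sh library. It stood at 26.9 to 61.7 FPKM in the vector and TIF1γ lines and 0.243 to 0.775 in the sh lines. KRT19, EPCAM and CLDN4 passed the filter on low values only through the vector and TIF1γ libraries, where they are higher. CDH1 was at 4.27 to 10.9 FPKM in the vector and TIF1γ lines and at 0.857, 6.96 and 6.0 in sh-NC 2, sh-TAF15 2 and sh-TAF15 3, so its groups overlapped. Those of KRT7, EPCAM and CLDN4 overlapped as well. Without KRT8 and KRT18, the epithelial list summed to 1819 to 3822 FPKM in the vector and TIF1γ lines and 1525 to 1931 in the sh lines. The 7 markers of fibroblasts, which also make basement membrane, summed to 0.403 to 1.65 FPKM in the vector and TIF1γ lines and 4.31 to 6.05 in the sh lines. COL1A1 and COL1A2 were called higher, though both passed the filter only through the sh libraries, DCN was listed at 0 in every library, and no other marker of that list reached 0.5 FPKM. The 4 endothelial markers matched summed to at most 0.298 FPKM in any library. The leukocyte list summed to 24.8 to 52.6 FPKM in the vector and TIF1γ lines and 24.7 to 28.6 in the sh lines, nearly all of it CD68, with CD3E listed at 0 throughout. The basal or myoepithelial list summed to 4.68 to 9.48 and 8.96 to 23.4 FPKM, nearly all of it ACTA2, with KRT14 listed at 0 throughout. The part of these markers in the differences of the 9 genes was not tested, and in bulk RNA fewer cells of a type and less RNA per cell cannot be told apart.

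Ratios of members within a library do not depend on the scaling between libraries. COL4A1 to COL4A2 was 0.31, 0.328 and 0.189 in vector 1, 2 and 3, 0.168 and 0.206 in TIF1γ 2 and 3, 0.455 in sh-NC 2, and 0.571 and 0.666 in sh-TAF15 2 and 3. The chains thus came closer to each other in all 3 sh libraries, without overlap. LAMA3 to LAMA5 was 0.0201 to 0.0492 in the 5 vector and TIF1γ libraries and 0.19, 0.164 and 0.0705 in sh-NC 2, sh-TAF15 2 and sh-TAF15 3, also without overlap. LAMB3 to LAMB1 was 0.466, 0.292 and 1.27 in vector 1, 2 and 3, 1.55 and 1.08 in TIF1γ 2 and 3, 0.272 in sh-NC 2, and 0.0976 and 0.0581 in sh-TAF15 2 and 3. LAMB3 transcripts thus outnumbered LAMB1 per length in vector 3 and both TIF1γ libraries, and sh-NC was close to vector 2. LAMB1 to LAMC1, chains that share a trimer, was 0.846 to 1.81 in the vector and TIF1γ lines and 0.681 to 1.64 in the sh lines, with wide overlap. These ratios carry no test. They do depend on transcript GC: the difference of the fitted log2 fold changes of the chains went from 0.94 to 0.69 for COL4A1 to COL4A2 and from 1.96 to 1.3 for LAMA3 to LAMA5 when the GC trend was removed. For LAMB3 to LAMB1 it went from -2.38 to -1.9, and for LAMB1 to LAMC1 from -0.35 to -0.31.

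**Figure D2:**
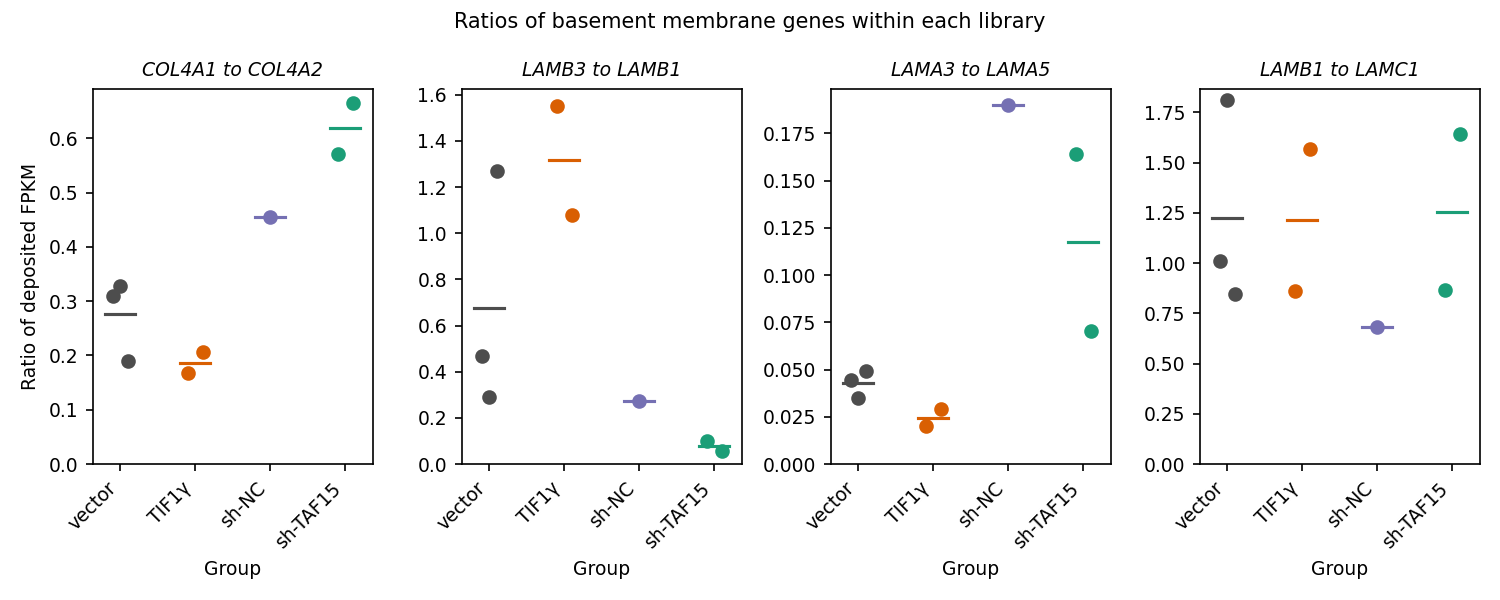
Ratio of deposited FPKM of pairs of basement membrane genes within each library, by group; points are libraries and bars are group means, with every axis starting at 0. The sh libraries are above the other 5 for COL4A1 to COL4A2 and LAMA3 to LAMA5, below them for LAMB3 to LAMB1, and overlap them for LAMB1 to LAMC1.

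TIF1γ overexpression against the empty vector moved none of the 9 genes past the threshold. Of all genes tested, 3 were called (0.0216%), and no member had an unadjusted p under 0.05, although 2746 of all genes did. The adjusted p of the members ran from 0.278 to 0.717, and their median log2 fold change was -0.17 against 0.01 over all genes. Both TIF1γ libraries lay above the 3 vector libraries for LAMA5 and HSPG2 (20.8% of all genes did so) and below them for LAMA3, LAMC1 and NID1 (16.8% of all genes).

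Among the collagens, COL4A1 gave a log2 fold change of -0.17 (95% interval -0.73 to 0.39) and COL4A2 of 0.27 (-0.43 to 0.97). LAMC1 gave -0.52 (-1.09 to 0.05), LAMB1 -0.52 (-1.17 to 0.13), LAMA3 -0.38 (-0.95 to 0.20) and NID1 -0.41 (-0.98 to 0.15). LAMB3 gave the widest interval, 0.63 (-0.24 to 1.51), as vector 3 stood with the TIF1γ libraries. Without vector 3 the LAMB3 value was 1.09 (adjusted p = 0.0644). HSPG2 gave 0.47 (-0.05 to 0.98) and LAMA5 0.34 (-0.23 to 0.91).

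Of the 4 comparisons, TIF1γ against vector had the strongest relation to transcript GC across genes (Spearman's rho 0.737 over 13534 genes). The 3 members richest in GC were among the 4 with values above 0. With the trend removed, the values turned to -0.18 for LAMA5, -0.16 for COL4A2 and -0.01 for HSPG2, and LAMB3 (0.28, adjusted p = 0.882) was the member left above 0.

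TAF15 knockdown against sh-NC called none of the 9 genes, with 8 of all genes called (0.0575%). The median log2 fold change of the members was 0.09, and 1 member, LAMA5, had an unadjusted p under 0.05, as did 784 of all genes. LAMA5 stood at 56.7 FPKM in sh-NC and at 85.3 and 145 in sh-TAF15 2 and 3, a log2 fold change of 0.90 (95% interval 0.13 to 1.67, adjusted p = 0.763). LAMB3 stood at 10.7 FPKM in sh-NC and at 4.91 and 3.95 in sh-TAF15 2 and 3 (-1.15, -2.32 to 0.03, adjusted p = 0.891). LAMB1 gave 0.51 (-0.36 to 1.38), and the other 6 members lay between -0.28 and 0.15. COL4A1 (0.15, -0.61 to 0.90) and COL4A2 (-0.28, -1.22 to 0.66) were also not called. With 1 control library, the spread of sh-NC was taken from the other groups.

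The difference between the TIF1γ and the sh-TAF15 effects was also tested and called none of the members (6 of all genes, 0.0431%). Its median over the members was -0.32. LAMB3 had the largest value at 1.78 (95% interval 0.32 to 3.24, unadjusted p = 0.0214, adjusted p = 0.999), from the higher means in TIF1γ and the lower ones in sh-TAF15. LAMB1 had -1.03 (-2.11 to 0.06), and the other 7 lay between -0.56 and 0.55.

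**Figure D3:**
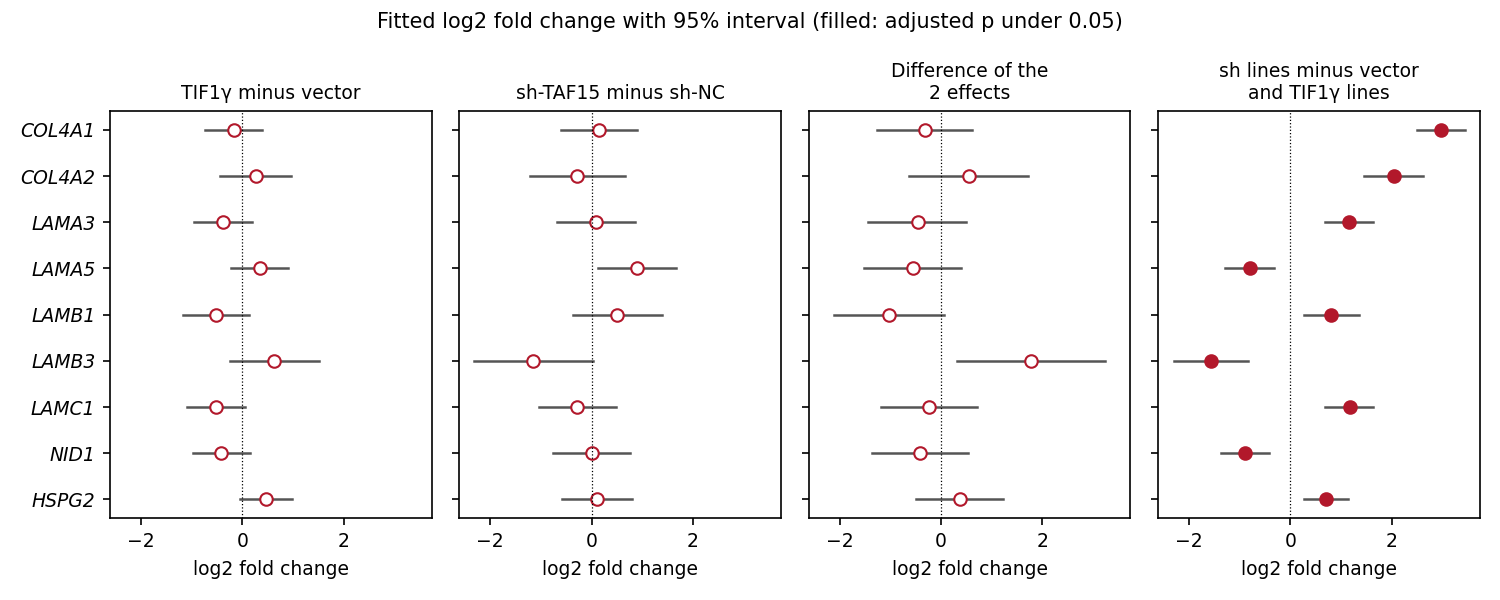
Fitted log2 fold change on the log2(FPKM + 1) scale (x axis) of each of the 9 genes in the 4 comparisons, with 95% intervals as lines; filled points have an adjusted p under 0.05. All 9 points are filled for the sh lines against the vector and TIF1γ lines, and none is in the other 3 panels.

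Other genes of the basement membrane moved in both directions between the pairs of lines. Of 32 further components, 18 were tested, and 4 were called higher and 5 lower (median log2 fold change 0.18, with 41.4% of all genes called). TINAGL1, a secreted matrix protein, was at 0.473 to 1.05 FPKM in the vector and TIF1γ lines and at 29.4, 23.1 and 24.7 in the sh libraries (log2 fold change 3.86). FBLN1 (2.06), a fibulin, SPARC (1.72), which binds collagen IV, and NID2 (0.87), the other nidogen, were also higher. NID2 stood at 0.139 to 1.17 FPKM in the vector and TIF1γ lines and at 1.66, 2.11 and 1.95 in sh-NC 2, sh-TAF15 2 and sh-TAF15 3, the opposite direction to NID1. LAMB2 (-1.21), a beta chain that can replace LAMB1, was lower, at 37.8 to 66.2 FPKM in the vector and TIF1γ lines and 18.4, 33.4 and 28.7 in the sh libraries. COL7A1 (-1.23), the anchoring fibril collagen, and SMOC1 (-1.68) were lower as well. The groups overlapped for COL7A1, with sh-TAF15 3 (23.0 FPKM) above vector 3 (17.2). TINAGL1 and NID2 passed the filter on low values only through the sh libraries, and SMOC1 only through the vector and TIF1γ libraries, so a difference was built into their entry.

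The remaining collagen IV chains went the opposite way from COL4A1 and COL4A2. COL4A5 (-0.97) and COL4A6 (-1.36) were called lower. The groups overlapped narrowly for COL4A5, with sh-NC 2 at 1.49 FPKM and TIF1γ 2 at 1.48. COL4A6 was at 1.51 to 2.85 FPKM in the vector and TIF1γ lines and at 0.357, 0.104 and 0.0796 in the sh libraries. It passed the filter only through the vector and TIF1γ libraries. COL4A3 and COL4A4 were too weak to be tested, at 0.347 to 1.23 and 0.441 to 0.839 FPKM in the vector and TIF1γ lines and at most 0.0397 and 0.0432 in the sh libraries. LAMA1, LAMA2, LAMA4 and LAMB4 stayed below 1 FPKM in every library and were not tested.

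Receptors for the basement membrane showed 5 members called higher and 4 lower of 12 tested of 16 (median 0.09). The integrin chains ITGA2 (1.54), ITGB4 (1.51), ITGB1 (1.28), ITGA3 (0.94) and ITGA6 (0.71), which bind collagen or laminin, were higher in the sh lines. ITGB4, the hemidesmosomal beta chain, was at 24.9 to 50.9 FPKM in the vector and TIF1γ lines and at 101, 176 and 138 in the sh libraries. SDC1 (-0.84), CD151 (-0.79), BCAM (-0.82), which binds LAMA5, and ITGA7 (-0.59) were lower, ITGA7 having passed the filter only through the vector and TIF1γ libraries. The groups overlapped for ITGA6, SDC1, CD151 and BCAM. BCAM was at 26.4, 29.8 and 29.6 FPKM in the sh libraries, above vector 1 (23.9) and vector 2 (25.2).

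Of 26 enzymes and chaperones that make or export collagen and laminin, 24 were tested, with 5 higher and 5 lower (median -0.16). PLOD2 (1.51), a collagen lysyl hydroxylase, and P4HA1 (1.34), a prolyl hydroxylase subunit, were higher, as were the secretion factors SEC23A (0.92), MIA3 (0.84) and TFG (0.54). POMT1 (-1.31), P4HA3 (-1.11), PREB (-0.81), P3H3 (-0.62) and P3H4 (-0.57) were lower, with overlap between the groups for P3H3 and P3H4. The 5 called higher have transcripts of 34.4% to 41.1% GC, and the 5 called lower of 52.3% to 62.0%. Fold changes in this comparison were related to transcript GC, and values with that trend removed are not reported here for these genes. Of 23 remodelling genes, 14 were tested, with 2 higher and 2 lower (median 0.26). MMP2 (3.21), a gelatinase that also cleaves collagen IV, was at 0.788 to 2.94 FPKM in the vector and TIF1γ lines and at 25.5, 26.9 and 24.8 in the sh libraries, and its inhibitor TIMP2 (0.80) was also higher. MMP7 (-4.97), or matrilysin, was at 99.3 to 153 FPKM in the vector and TIF1γ lines and at 2.79, 4.60 and 5.37 in the sh libraries. BMP1 (-0.79) was also lower, though its groups overlapped (sh-TAF15 3 at 8.71 FPKM, vector 2 at 6.88).

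**Figure D4:**
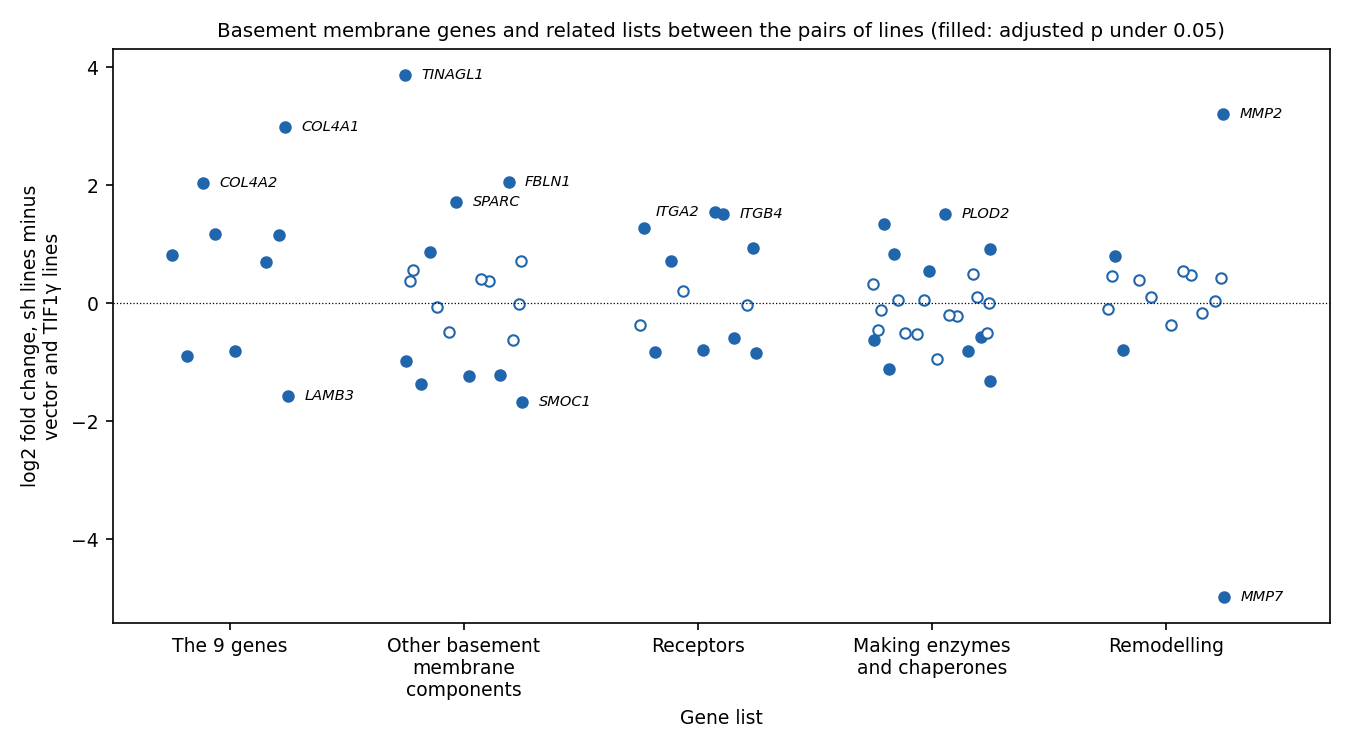
Fitted log2 fold change of the sh lines against the vector and TIF1γ lines (y axis, log2(FPKM + 1) scale) for the 9 genes and the tested members of 4 related lists; each point is a gene, filled where the adjusted p is under 0.05, and genes beyond 1.5 in size are named. All lists hold genes on both sides of 0, with TINAGL1 highest (3.86) and MMP7 lowest (-4.97).

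No gene of these 4 lists was called in the other 3 comparisons. For TIF1γ against vector the lowest p-values belonged to ADAM10 (-1.08), BMP1 (0.67) and MMP2 (0.53) among remodelling genes and to PLOD2 (-1.16), P3H4 (0.65) and P4HA1 (-0.69) among the enzymes. Among receptors they belonged to ITGA6 (-0.92), BCAM (0.89) and CD151 (0.63), and among further components to COL18A1 (0.50), LAMB2 (0.44) and NTN4 (-0.64), all as log2 fold changes. Of these genes, those below 0 have transcripts of 34.4% to 47.9% GC, and those above 0 of 56.5% to 67.2%. This comparison had the strongest relation to transcript GC, and values with that trend removed are not reported here for these genes. For sh-TAF15 against sh-NC, among the genes reported here, they belonged to ADAM17 (-1.21), PLAU (-0.89), SPARC (-1.26), LAMB2 (0.66), LAMC3 (-0.55), ITGA3 (-0.82), ITGA2 (-0.85), SDC1 (0.66), CRTAP (-0.68), LOXL2 (-0.51) and P3H3 (0.47). For the difference of the effects, likewise, they belonged to PLAU (1.18), MMP7 (-0.95), ITGA3 (1.25), BCAM (0.79), SDC4 (0.57), CRTAP (1.22), P3H4 (0.82), COLGALT1 (0.72), SPARC (0.97), COL17A1 (0.65) and NID2 (-0.57).

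The protein-coding genes most like each member over the 8 libraries were found by the root mean square difference of profiles, each centred on its own mean log2(FPKM + 1). COL4A1 was most like SOX7 (0.19) and UGT2B7 (0.20), with COL4A2 at rank 44 of 870 genes compared (0.57). SOX7 was at 0.0671 to 0.208 FPKM in the vector and TIF1γ lines and at 7.74, 7.26 and 7.15 in the sh libraries. SOX7 and UGT2B7 passed the filter on low values only through the sh libraries. COL4A2 was most like TGM2 (0.22) and LTBP2 (0.24), with COL4A1 at rank 127 of 2656. LTBP2 also needed the sh libraries to pass the filter, as only vector 3 (1.81 FPKM) of the others reached 1 FPKM. TGM2, a transglutaminase, was at 29.2 to 80.3 FPKM in the vector and TIF1γ lines and at 297, 305 and 254 in the sh libraries. By this measure, which also counts the size of a difference, neither collagen was the closest match of the other. Whether their shared promoter stretch plays a part was not tested.

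LAMA3 was most like RBBP9 (0.05) and FAM171A1 (0.11), and of the members LAMC1 came closest to it (0.20, rank 79 of 7292). LAMC1 was most like KPNA1 (0.11) and HSPA4L (0.11). LAMB1 was most like YAE1 (0.12) and C2CD2 (0.13), and LAMB3 most like ADAMTS10 (0.23) and GHDC (0.29). LAMA5 was most like SLC4A2 (0.11) and TAF10 (0.12), which shared its low value in sh-NC (161 and 76.6 FPKM). NID1 was most like ZFP36L2 (0.10) and CTSL (0.13), and HSPG2 most like FBXL5 (0.11) and CKAP4 (0.13). ZFP36L2 was at 10.8 to 13.5 FPKM in the vector and TIF1γ lines and at 6.33 to 6.96 in the sh libraries. The scale understates the NID1 difference, which was 23.7-fold by means of FPKM, so the 2 genes are alike only on that scale. These likenesses are descriptions over libraries that share the same split between pairs of lines.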

How the data were processed

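Per the labels' protocols, mRNA was enriched from A549 total RNA with a poly(A) module or an rRNA removal kit and sequenced on a HiSeq. The submitters' processing notes name cutadapt 1.9.1, HISAT2 2.0.1, HTSeq 0.6.1 and GRCh37. The deposited values are FPKM per gene, made by the authors in a way not given in the sources used here, and no read counts were used. What follows was computed from them. Identifiers were matched to symbols for 52324 of 57879 genes.

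Values were scaled between libraries by a trimmed mean of log2 ratios (30% of ratios and 5% of abundances trimmed). Genes at 1 FPKM or more in at least 2 libraries were kept. For 19 genes an exact 0 stood beside 100 FPKM or more in another library, and they were set aside (11 would have passed), since an exact 0 there can be a failed estimate. The remaining 13907 genes, with all 9 members among them, were fitted by limma 3.58.1 (R 4.3.3, trend and robust) on log2(FPKM + 1), with 4 groups in 1 fit and no covariate. P-values were adjusted by Benjamini-Hochberg over all genes. The fit has 4 residual degrees of freedom. Promoters came from RefSeq (GRCh38.p14), and all 9 members matched. Transcript GC came from GENCODE on GRCh38, so no GRCh37 coordinates are given.

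The 9 genes and the related lists were chosen with earlier results of these data known. The text names all 9 members, up to 3 genes of the lowest p per list and comparison, every list gene called, and 2 genes of the most similar profile per member. Some genes that this rule takes are not reported here. That similarity was sought among genes with a mean of at least 2 FPKM and a profile SD of at least 0.5 times that of the member. Alternatives were a pseudocount of 0.1, no scaling, no filter, the GC trend removed, a replicate block, only the groups compared, no trend and no robust variance, and leaving out each library. P-values measure the spread between these samples, which may be technical.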

Additional observations from a re-analysis of the deposited data

How the results depend on the processing

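Of 496 values of the members under an alternative, 476 kept their direction and side of the threshold, 9 lost a call and 11 turned, all 11 of them values that were not called. The lost calls, all between the pairs of lines, were LAMA5 (with no scaling -0.62, GC trend removed -0.06, replicate block -0.77 with adjusted p = 0.0508, and without sh-NC 2 or sh-TAF15 2), LAMB1 (with no filter, and without TIF1γ 2 or sh-TAF15 3) and HSPG2 (replicate block, 0.71, adjusted p = 0.0844). With the GC trend removed, TIF1γ values turned for COL4A2 (-0.16), LAMA5 (-0.18) and HSPG2 (-0.01), and sh-TAF15 values for NID1 (-0.04) and HSPG2 (-0.15). Leaving out each library in turn gave TIF1γ values of -0.03 (without vector 2) to 0.58 for COL4A2 and -1.05 to 0.02 (without TIF1γ 2) for LAMB1. It gave sh-TAF15 values of -0.02 to 0.31 for COL4A1, -0.15 to 0.32 for LAMA3 and -0.01 to 0.01 for NID1, and -0.51 to 0.02 for LAMC1 in the difference, where in each case the turned value came without sh-TAF15 2. NID1 fell under the filter, and has no value, without vector 1 or vector 2. The cause of these changes was not tested.

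The number of genes called over the whole table moved more. For TIF1γ it was 3, and 5 with a pseudocount of 0.1, 0 with no filter, 0 with the GC trend removed, 43 with the replicate block, 5 with only the groups compared, and 1 (without TIF1γ 2) to 298 (without vector 3) leaving out a library. For sh-TAF15 it was 8, and 21, 187, 3, 52 and 1 in the same order, and 0 (without either sh-TAF15 library) to 50 (without vector 2). For the difference it was 6, and 103 with no filter, 2 with the GC trend removed, 31 with the block, and 1 (without either sh-TAF15 library) to 18 (without vector 2). Between the pairs of lines it was 5758, and 3676 (without sh-NC 2) to 6362 leaving out a library. No member was called in the first 3 comparisons under any of these settings. Same-numbered vector and TIF1γ libraries deviated together weakly (r = 0.172 and 0.121). Vector and sh-TAF15 libraries deviated oppositely (-0.373 and -0.238), as did TIF1γ and sh-TAF15 libraries (-0.241 for both numbers). In a group of 2 libraries the deviations from the mean mirror each other, so these values are not independent. Whether replicate numbers pair the samples cannot be told from them. With the block, 4549 genes and 7 members were called between the pairs of lines.

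The depth behind FPKM is unknown, so no counting error can be set beside weak genes such as NID1 in the sh lines. With 1 sh-NC library, the knockdown rests on a borrowed spread, and with a library left out of a group of 2, the remaining one is assumed to vary like the others.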
